A study of Rattus norvegicus with 8 samples.

Results

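The 10 genes described here, called members, tune the Notch receptor and were followed in rat periodontal ligament (PDL) before and after the teeth meet. They were taken by name from the count table of 17337 genes: the fringe enzymes Lfng, Mfng and Rfng, the sugar-adding enzymes Pofut1 and Poglut1, the adaptors Numb and Numbl, and the Deltex genes Dtx2, Dtx3 and Dtx4. All 10 were in the table and all passed the filter on low counts. The tissue was laser-captured cervical PDL, the connective tissue between tooth root and bone, from untreated rats (Rattus norvegicus) under normal growth. One group was sampled at postnatal day 18 (P18), the other at postnatal day 28 (P28), with 4 animals and so 4 RNA libraries each. Occlusal contact is established between these ages, and the series' title links Notch signalling to PDL maturation and Lamin A. The libraries were made with a low-input kit.

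Notch receptors carry rows of EGF-like repeats outside the cell, and sugars on these repeats shape how the receptor answers its ligands. Pofut1 adds O-fucose and Poglut1 adds O-glucose to the repeats. The 3 fringe enzymes lengthen the O-fucose with N-acetylglucosamine, which shifts the receptor's response between Delta and Jagged ligands. Inside the cell, Numb and Numbl are endocytic adaptors known as antagonists of Notch, and Deltex proteins are ubiquitin ligases, several of which bind the intracellular part of the receptor.

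Lfng is a known target as well as a modulator of Notch, so the sequences before the member genes were searched for the letters bound by RBPJ, the DNA-binding partner of activated Notch. RefSeq promoter windows of build GRCr8 (250 bases before to 50 after a start) were at hand for 8 of the 10 members; Mfng and Dtx3 were not matched. The core TGGGAA, on either strand, was in the windows of Lfng, Poglut1 and Dtx2 and in 25.7% of all 33469 windows. The longer form GTGGGAA was in those of Lfng and Poglut1 and in 6.29% of all windows, and the E-box CACGTG in the same 2 members and in 6.42%. In both, these motifs overlapped by 3 letters to form CACGTGGGAA, which was in 21 windows, or 0.0627% of all. The overlapping form was looked for after both windows had been seen. A match in letters is a description, not a bound site.

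The overlapping form is shown in capitals for the 2 members that hold it, each read in the direction of the motif. The Lfng stretch lies at chr12:19153026-19153055, minus strand, with the capitals at bases -127 to -118 from the start. The Poglut1 stretch, at chr11:75704118-75704147, is the reverse complement of the gene's plus strand, with the capitals at bases 10 to 19 after the start.
Lfng: gtccgtgtccCACGTGGGAActagagatcg
Poglut1: gacgcctcggCACGTGGGAActgccctaca
The 250 bases before the Lfng start (chr12:19152919-19153168, minus strand) hold 2 core matches, shown in capitals with the E-box that overlaps the second.
Lfng upstream: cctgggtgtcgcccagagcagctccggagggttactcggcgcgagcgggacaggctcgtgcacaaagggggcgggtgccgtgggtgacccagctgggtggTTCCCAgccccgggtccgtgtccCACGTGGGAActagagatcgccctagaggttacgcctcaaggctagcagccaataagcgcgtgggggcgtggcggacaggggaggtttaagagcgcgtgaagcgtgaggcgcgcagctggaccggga
Lfng and Poglut1 lay on opposite sides of 0 in their age difference, as given with their values below, and neither passed the test. The side of Lfng turned when P28 replicate 1 was left out. Across the 8 libraries the log2 levels of the 2 genes had a Pearson r of 0.58 (Spearman 0.55). A link between the shared letters and these levels was not tested.

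Library totals ran from 5252693 to 26645656 counts. The shallowest library of each age was P18 replicate 1 (10863769) and P28 replicate 4 (5252693). P28 replicate 4 had the lowest mean correlation with its own age (0.759 over log2 levels, against 0.785 to 0.816 in the other 7). Of 8 ligament fibroblast markers, 6 were tested, and their summed level was 82501 to 126859 CPM in the P18 libraries and 128623 to 177163 CPM in the P28 ones. Col1a1, Col3a1 and Postn made up most of this sum, and each overlapped between ages (edgeR test, adjusted p = 0.358, 0.171 and 0.433). Among the fibroblast markers Fmod rose (log2 fold change 2.97 ± 0.52, edgeR test, adjusted p = 0.0264) and Tnmd fell (-2.43 ± 0.29, edgeR test, adjusted p = 0.00608). Aspn had at most 2 counts in any library. In captured tissue, fewer cells of a type and less RNA per cell cannot be told apart. Levels are CPM, counts scaled to a common library size with TMM factors, given with the SD over 4 libraries and, where listed, in the order of replicates 1 to 4. CPM hold no correction for gene length, so levels are compared between ages and not between genes.

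None of the 10 members passed the test between ages (edgeR quasi-likelihood test, Benjamini-Hochberg adjusted p under 0.05 over 10472 genes). The background was 0.936% of all tested genes. An unadjusted p under 0.05 was found for 2 of 10, Mfng and Dtx4, where 14.5% of all genes had one. Every P28 library lay above every P18 library for 1 member, Mfng (background 4.91%), and every P28 library lay below for 0 (background 5.54%; 10.4% of all genes in either direction). The Wald test of DESeq2 and limma with voom and quality weights also called 0 members, against 5.49% and 2.93% of all genes. The members' median log2 fold change, P28 over P18, was -0.28, with 4 above 0 and 6 below; over all tested genes it was 0.01. With 10 genes, counts of 0 to 2 are not set apart from these backgrounds.

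**Figure D1:**
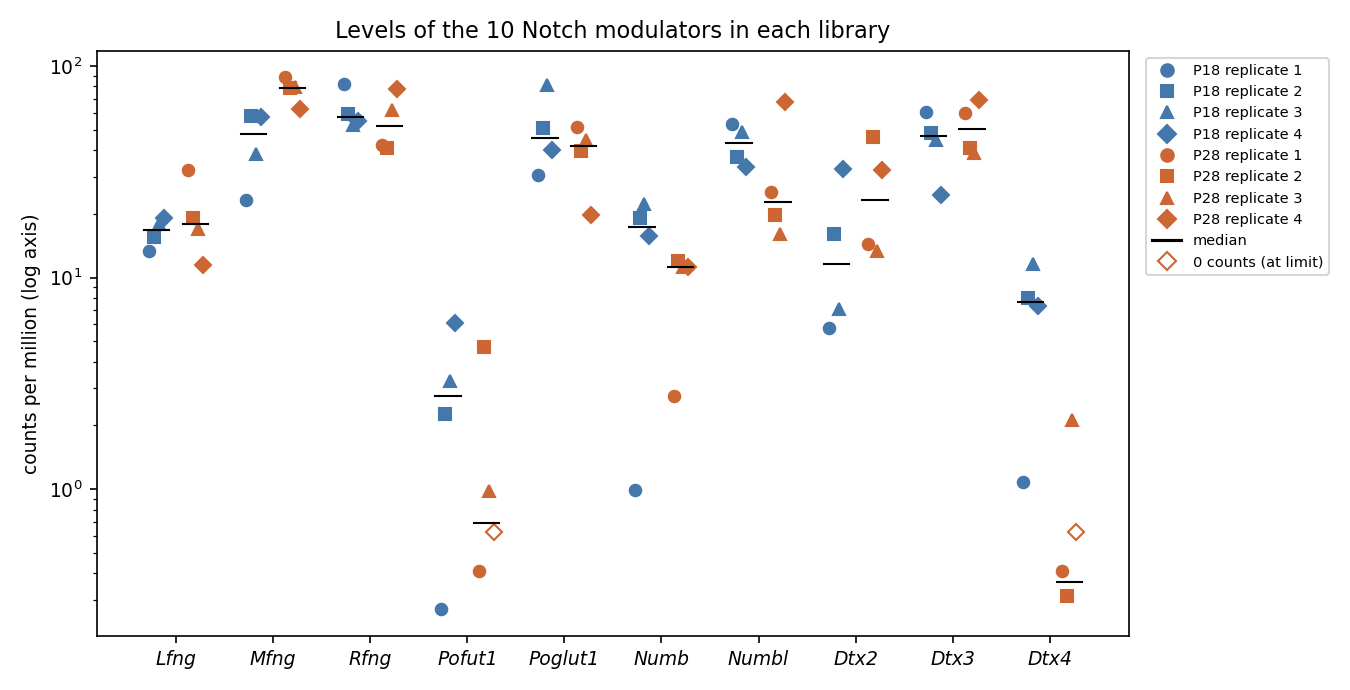
CPM (log axis) of each of the 10 modulators in every library, P18 in blue and P28 in orange, with a symbol for each replicate and a bar at the median of an age (a count of 0 enters the median as 0). Open symbols mark a count of 0, drawn at the level of 3 counts in that library; Mfng alone has all 4 P28 points above all 4 P18 points, and Pofut1, Numb and Dtx4 spread most.

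Among the fringe genes, Mfng (manic fringe) was the member whose ages stood apart. It lay at 23.2, 58.1, 38.3 and 57.6 CPM in the P18 libraries and at 88.3, 78.2, 79.9 and 62.6 CPM in the P28 libraries. The lowest P28 library was 4.52 CPM above the highest P18 library, a narrow gap beside the SDs of 16.8 and 10.7 CPM. Mean levels were 44.3 ± 16.8 (P18) and 77.3 ± 10.7 CPM (P28), giving a log2 fold change of 0.80 ± 0.32 (SE), or 1.74-fold with a 95% interval of 1.07 to 2.83 that is not corrected for the number of genes. Over all genes the edgeR adjusted p was 0.269. With libraries scaled by their totals alone, the gap became -3.26 CPM and the ages overlapped. Leaving out 1 library in turn, the log2 fold change ran from 0.59 (without P18 replicate 1) to 0.95, with an edgeR adjusted p of 0.192 to 0.484.

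Rfng (radical fringe) did not share this pattern of levels. It lay at 82.5, 59.4, 52.8 and 55.2 CPM in the P18 libraries and at 42.1, 40.8, 61.7 and 77.6 CPM in the P28 libraries. Its highest values were in the shallowest library of each age, and the ages overlapped. The log2 fold change was -0.17 ± 0.30 (edgeR test, adjusted p = 0.849), with a 95% interval of -0.83 to 0.48.

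Lfng (lunatic fringe) was close between ages in mean and wider at P28. Its levels were 13.3, 15.6, 17.9 and 19.0 CPM in the P18 libraries, a coefficient of variation of 15.5%. They were 32.3, 19.0, 16.9 and 11.4 CPM in the P28 libraries, a coefficient of variation of 44.5%. P28 holds both the highest and the lowest library. The log2 fold change was 0.28 ± 0.51 (edgeR test, adjusted p = 0.857) and turned to -0.0563 without P28 replicate 1.

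Summed over the 3 fringe genes, CPM were 109 to 133 in the P18 libraries and 138 to 163 in the P28 libraries, so the sums did not overlap. The gap of this sum was taken after seeing the data. The sum holds Mfng, whose ages stood apart alone, so it is not a second result beside Mfng. How often sums of other genes stand apart was not taken. The sums of the sugar-starting enzymes, the Numb adaptors and the Deltex genes each overlapped between ages. The gap of 5.05 CPM between the ages shrank to 0.137 CPM with library totals alone, and to 3.76 with upper-quartile scaling. Mfng held 19.5%, 43.7%, 35.1% and 43.7% of the fringe counts in the P18 libraries and 54.3%, 56.7%, 50.4% and 41.3% in the P28 libraries. All P28 libraries but replicate 4 lay above every P18 library in this share. Rfng held 41.9% to 69.3% at P18 and 25.9% to 51.2% at P28, and Lfng 11.2% to 16.4% and 7.54% to 19.8%. These shares hold the gene lengths as well as the levels, but length does not differ between ages.

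**Figure D2:**
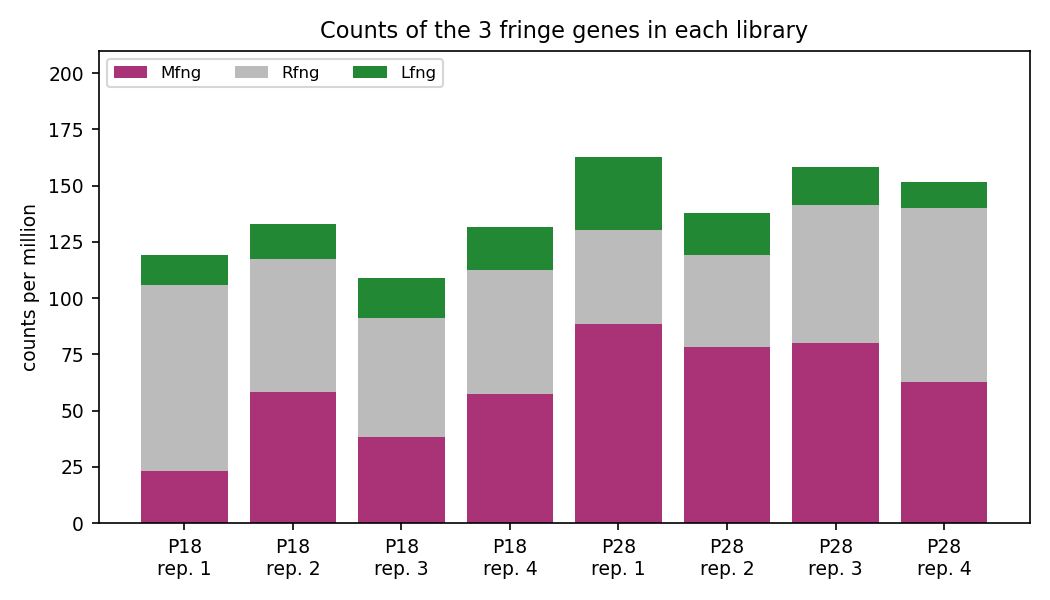
Stacked CPM of Mfng, Rfng and Lfng in each library. Totals are 109 to 133 at P18 and 138 to 163 at P28; the Mfng part is 19.5% to 43.7% of the bar at P18 and 41.3% to 56.7% at P28.

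Neither enzyme that starts a sugar chain passed the test. Poglut1, the protein O-glucosyltransferase, lay at 30.6, 51.0, 81.4 and 40.0 CPM in the P18 libraries and at 51.5, 39.5, 44.4 and 19.8 CPM in the P28 libraries. The ages overlapped, with P18 replicate 3 high and P28 replicate 4 low. Its log2 fold change was -0.38 ± 0.40 (edgeR test, adjusted p = 0.711). Leaving out P18 replicate 3 brought it to -0.07.

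Pofut1, the protein O-fucosyltransferase on which the fringe enzymes depend, was near the limit of detection in several libraries. Its counts were 3, 63, 76 and 120 in the P18 libraries and 7, 45, 12 and 0 in the P28 libraries. As CPM these were 0.271, 2.27, 3.24 and 6.11 at P18 and 0.411, 4.70, 0.979 and 0 at P28. The count of 0 in P28 replicate 4 allows up to 3 counts, or 0.624 CPM. Both ages held a library with few counts and one with many, and the log2 fold change of -0.96 ± 1.47 (edgeR test, adjusted p = 0.819) had a 95% interval of -4.16 to 2.25. It ran from -2.61 (without P28 replicate 2) to -0.34 (without P18 replicate 4) when 1 library was left out. At this depth and spread the data do not tell a higher from a lower level of Pofut1 at P28.

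The adaptors Numb and Numbl both had a mean below 0 on the log2 scale of the age difference, with overlapping libraries. Numb lay at 0.994, 19.1, 22.2 and 15.7 CPM in the P18 libraries, from 11, 529, 521 and 308 counts. P18 replicate 1 was the lowest of all 8 libraries for Numb. In P28 replicates 1 to 4 Numb lay at 2.76, 11.9, 11.2 and 11.2 CPM, with replicate 1 apart from the other 3. The log2 fold change was -0.65 ± 0.88 (edgeR test, adjusted p = 0.791), and ran from -1.04 (without P18 replicate 1) to -0.34 (without P28 replicate 1).

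Numbl (Numb-like) lay at 53.0, 37.2, 48.9 and 33.3 CPM in the P18 libraries and at 25.4, 19.8, 16.1 and 67.6 CPM in the P28 libraries. P28 replicates 1 to 3 were below every P18 library, and P28 replicate 4 was above every P18 library. The log2 fold change was -0.42 ± 0.47 (edgeR test, adjusted p = 0.728). Without P28 replicate 4 it was -1.07 (edgeR test, adjusted p = 0.154, not called), the largest move of this gene when 1 library was left out.

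Of the Deltex genes, Dtx4 had the largest age difference of the 10 members and few counts. It had 12, 221, 270 and 144 counts in the P18 libraries and 7, 3, 26 and 0 in the P28 libraries. These were 1.08, 7.96, 11.5 and 7.33 CPM at P18 and 0.411, 0.313, 2.12 and 0 CPM at P28. P18 replicate 1 lay below P28 replicate 3, so the ages overlapped by 1 library on each side. The log2 fold change was -3.25 ± 1.38 with an uncorrected 95% interval of -6.25 to -0.24 (edgeR test, adjusted p = 0.301; 0.115 by the Wald test of DESeq2). It ran from -4.71 (without P28 replicate 3) to -2.87 (without P28 replicate 4), with an edgeR adjusted p of 0.259 to 0.530.

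Dtx2 varied widely within each age. It lay at 5.78, 16.1, 7.13 and 32.5 CPM in the P18 libraries and at 14.4, 46.2, 13.4 and 32.2 CPM in the P28 libraries. The ages overlapped over most of their range, and the log2 fold change of 0.78 ± 0.66 (edgeR test, adjusted p = 0.642) ran from 0.38 without P28 replicate 2 to 1.45 without P18 replicate 4. Dtx3, a short Deltex protein that lacks the WWE domains of Dtx2 and Dtx4, lay at 60.6, 48.4, 44.6 and 24.6 CPM in the P18 libraries and at 59.7, 40.8, 38.6 and 68.9 CPM in the P28 libraries. Its log2 fold change was 0.22 ± 0.35 (edgeR test, adjusted p = 0.825), with a 95% interval of -0.54 to 0.98.

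**Figure D3:**
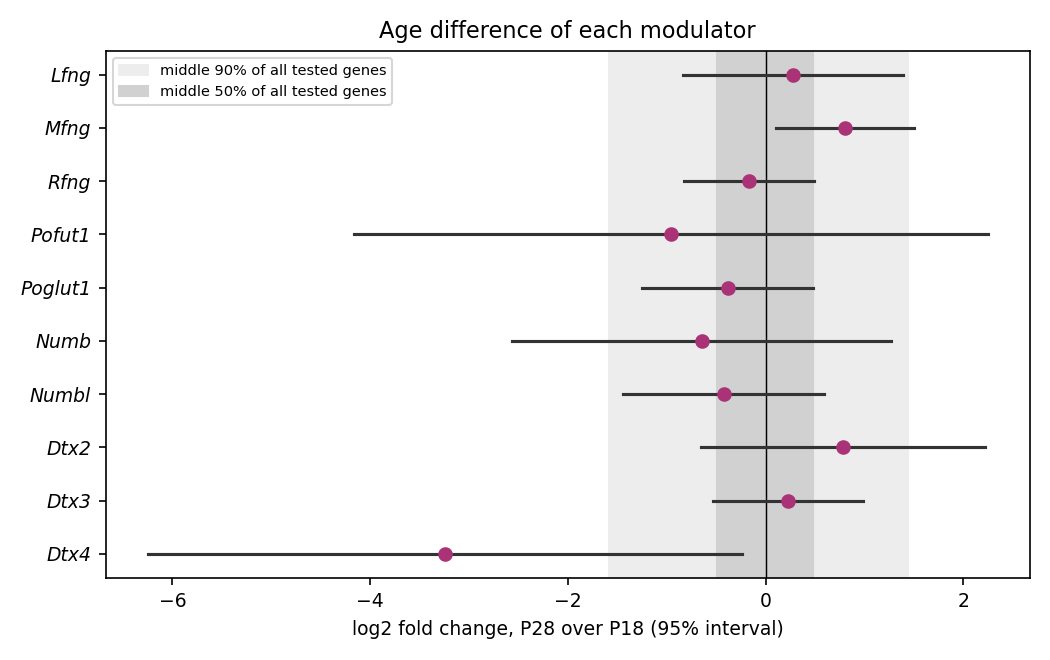
Log2 fold change, P28 over P18, of each modulator (point) with its uncorrected 95% interval (line), on bands that hold the middle 50% and 90% of all 10472 tested genes. Mfng (0.80) and Dtx4 (-3.25) are the 2 members whose interval does not cross 0; Pofut1 and Dtx4 have the widest intervals.

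The precision differed strongly among members. The SE of the log2 fold change was lowest for Rfng, Mfng, Dtx3 and Poglut1 (0.30, 0.32, 0.35 and 0.40) and highest for Pofut1, Dtx4 and Numb (1.47, 1.38 and 0.88), where the median of all tested genes was 0.49. The members with the fewest counts were thus those with the widest error.

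Ratios of counts within 1 library do not depend on how libraries are scaled, and 8 were taken between members of a kind (log2, 0.5 added to each count, described without a test). Only Dtx2 over Dtx4 had every P28 library above every P18 library. It was 2.37, 1.02, -0.69 and 2.14 in the P18 libraries and 5.03, 6.98, 2.63 and 8.28 in the P28 libraries. The closest libraries of the ages were P28 replicate 3 at 2.63 and P18 replicate 1 at 2.37. The means were 1.21 ± 1.40 and 5.73 ± 2.46, and the values of P28 replicates 2 and 4 rest on 3 and 0 counts of Dtx4. The difference between the means was 4.52, and 3.85 with 2 added to each count in place of 0.5. How often ratios of other gene pairs stand apart was not taken, so 1 of 8 has no background. Dtx3 over Dtx4 had means of 3.01 ± 1.86 and 6.86 ± 2.13, and overlapped because P18 replicate 1 was at 5.75.

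Among fringe genes, Mfng over Rfng was -1.83, -0.03, -0.47 and 0.06 in the P18 libraries and 1.07, 0.94, 0.37 and -0.31 in the P28 libraries. The P28 libraries other than replicate 4 lay above every P18 library. Mfng over Lfng had means of 1.35 ± 0.49 at P18 and 2.04 ± 0.43 at P28, and its libraries overlapped. Lfng over Rfng (-1.91 ± 0.51 and -1.53 ± 1.02), Pofut1 over Poglut1 (-4.60 ± 1.59 and -5.74 ± 2.00) and Dtx2 over Dtx3 (-1.80 ± 1.64 and -1.12 ± 0.95) differed between ages by less than the larger SD. The same held for Numb over Numbl (-2.21 ± 2.31 and -1.76 ± 1.33), where P18 replicate 1 stood at -5.67 and the other P18 libraries between -1.14 and -0.96. Without P18 replicate 1, its difference of 0.46 between the age means turned to -0.69.

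**Figure D4:**
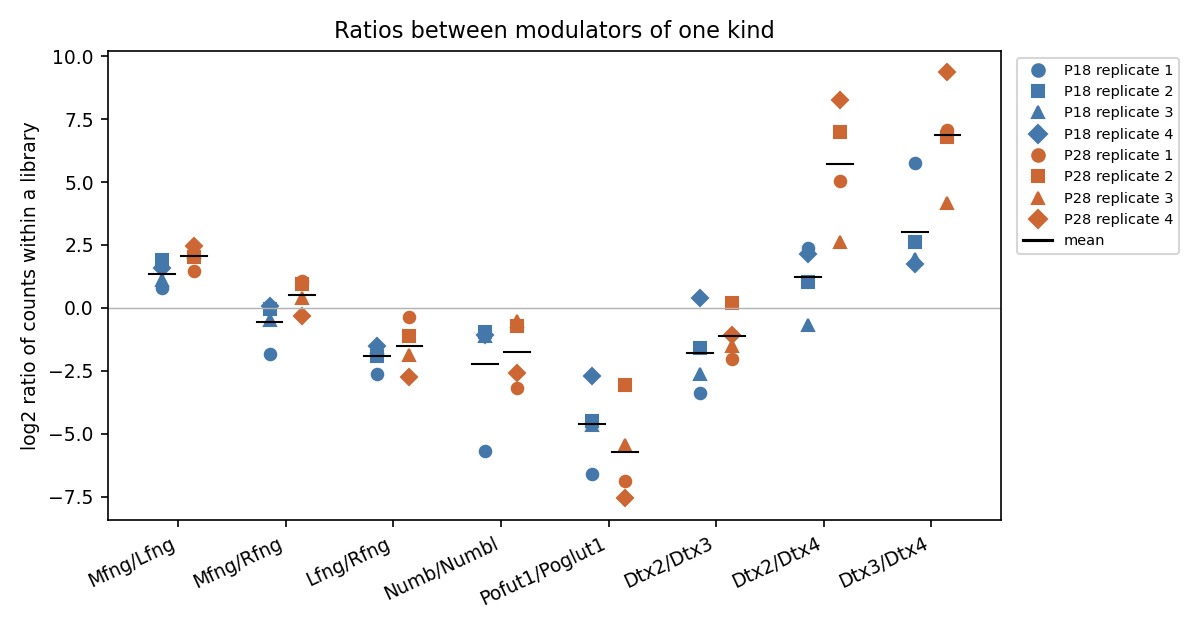
Log2 ratio of counts between modulators of one kind in each library, P18 in blue and P28 in orange, with a bar at the mean of an age. Dtx2/Dtx4 is the 1 ratio whose ages do not overlap; Numb/Numbl shows P18 replicate 1 far below the other P18 libraries.

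The shallowest library of each age held the lowest or highest level of many members, as it did of many genes. In P18 replicate 1, 7 members had their lowest P18 level and 3 their highest, so all 10 were at an extreme. Of all tested genes 31.4% were lowest and 29.9% highest there, or 61.3% at an extreme. In P28 replicate 4, 5 had their lowest P28 level and 3 their highest. Of all genes 37.9% were lowest and 27.8% highest there, or 65.7% at an extreme. Lfng, Mfng, Pofut1, Poglut1 and Dtx4 were lowest in both libraries, and Rfng, Numbl and Dtx3 highest in both. The share of all genes at the same extreme in both was not taken. Across the 10 members, the deviations of these 2 libraries from the mean of their age had a Pearson r of 0.54 (Spearman 0.44), and across all tested genes one of -0.02. The 2 deviations had the same sign for 8 of 10 members and for 46.9% of all tested genes. This pair of libraries was chosen after seeing the data, so these values do not set the members apart. P28 replicate 2 had fewer counts (9083624) than P18 replicate 1. In it 1 member had its lowest P28 level and 3 their highest, where 45.8% of all genes were at an extreme. The part of depth in these extremes was not tested. Without P18 replicate 1 and P28 replicate 4, 0 members were called. The log2 fold changes of Mfng, Dtx4, Numbl and Numb were then 0.68, -3.22, -0.96 and -1.14 (edgeR test, adjusted p = 0.205, 0.192, 0.224 and 0.431).

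Over the 45 pairs of members, correlations of log2 CPM across the 8 libraries are given as a description, since all share the same libraries and scaling. The lowest Pearson r were those of Lfng with Rfng (-0.84, Spearman -0.83) and of Pofut1 with Dtx3 (-0.83, Spearman -0.86). The highest was that of Poglut1 with Dtx4 (0.73, Spearman 0.69). Fringe genes thus did not vary in parallel: Mfng had r of 0.50 with Lfng (Spearman 0.38) and -0.61 with Rfng (Spearman -0.40).

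The genes most like Mfng across the 8 libraries, of 7643 compared, were Ddi2, RT1-N3 and Ica1 (Pearson r 0.96, 0.96 and 0.95). Ddi2 encodes a ubiquitin-dependent protease and RT1-N3 a class I histocompatibility gene. Those most like Dtx4 were Rrm1, the large subunit of ribonucleotide reductase, Ube2e2, a ubiquitin-conjugating enzyme, and Adnp2 (0.98, 0.97 and 0.96). Those most like Dtx2 were Gtf2f1, a subunit of a general transcription factor, Ppp2cb, a catalytic subunit of protein phosphatase 2A, and Spns2, a sphingosine-1-phosphate transporter (0.96, 0.95 and 0.94). Spearman values, in the same order, were 0.86, 0.74 and 0.86 for Mfng, 0.98, 0.90 and 0.98 for Dtx4, and 0.88, 0.95 and 0.93 for Dtx2. All these values are a ranking over 8 libraries only, and the Pearson r are the highest of all genes compared.

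The rest of the pathway was read from 6 lists, of which 43 genes were tested and 0 called in either direction by edgeR; 7 had an unadjusted p under 0.05 (background 14.5%), and 5 had ages that did not overlap (background 10.4%). Of 7 other glycosyltransferases of EGF repeats, 5 were tested, with 2 log2 fold changes above 0 and 3 below (median -0.43). Eogt, which adds N-acetylglucosamine directly to EGF repeats, lay at 12.8, 8.39, 10.7 and 10.1 CPM in the P18 libraries and at 0.294, 0.627, 0.0815 and 0.832 CPM in the P28 libraries. The libraries of the ages were far apart, but the P28 levels lay near the limit of detection. In P28 replicates 1 to 4, 3 counts amount to 0.176, 0.313, 0.245 and 0.624 CPM. The log2 fold change of Eogt was -4.55 ± 1.12 (edgeR test, adjusted p = 0.0840, and 0.0567 to 0.210 leaving out 1 library). The Wald test of DESeq2 called it (adjusted p = 0.000111). Poglut3 (Kdelc2 in the deposited table), another O-glucosyltransferase, averaged 105 ± 29.2 (P18) and 61.7 ± 7.53 CPM (P28) (edgeR test, adjusted p = 0.173), and its ages did not overlap.

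Genes that supply GDP-fucose, the donor used by Pofut1, were tested for 6 of 6, with 2 above 0, 4 below and a median of -0.16. The fucose kinase gene Fcsk (Fuk in the deposited table) and the transporter gene Slc35c2 had log2 fold changes of 1.28 ± 0.75 and 0.42 ± 0.28 (edgeR test, adjusted p = 0.480 and 0.532). Of 10 tested Numb partners and subunits of AP2, the endocytic adaptor complex, 4 were above 0 and 6 below (median -0.13). Ap2m1, its medium subunit, lay at 709, 901, 909 and 892 CPM in the P18 libraries and at 436, 552, 517 and 542 CPM in the P28 libraries. The ages did not overlap, and the log2 fold change of -0.74 ± 0.17 had an edgeR adjusted p of 0.0714, and of 0.0504 to 0.215 leaving out 1 library. It was called by the Wald test of DESeq2 (adjusted p = 0.00116) and by limma with voom and quality weights (0.0205). The endocytic gene Eps15 had a log2 fold change of -0.95 ± 0.47 (edgeR test, adjusted p = 0.386).

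Of 13 other ubiquitin ligases and partners that act on Notch or its ligands, 10 were tested, with 4 above 0 and 6 below (median -0.21). Neurl1b, which acts on ligands, averaged 3.66 ± 2.86 (P18) and 0.209 ± 0.295 CPM (P28), with 2 P28 libraries at 0 counts (log2 fold change -4.14 ± 1.66, edgeR test, adjusted p = 0.269). Its log2 fold change ran from -6.11 (without P28 replicate 2) to -3.45 (without P18 replicate 2). Nedd4, a ubiquitin ligase with many substrates, had a log2 fold change of -0.36 ± 0.18 (edgeR test, adjusted p = 0.367). Among 7 tested receptors and ligands, 5 were above 0 and 2 below (median 1.06), with the lowest p for Notch4 and Notch1 (log2 fold change 1.08 ± 0.34 and 1.06 ± 0.38, edgeR test, adjusted p = 0.157 and 0.221). Of 5 tested targets, 2 were above 0 and 3 below, with Hes1 at 0.31 ± 0.52 and Nrarp at -0.22 ± 0.43 (edgeR test, adjusted p = 0.835 and 0.863).

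**Figure D5:**
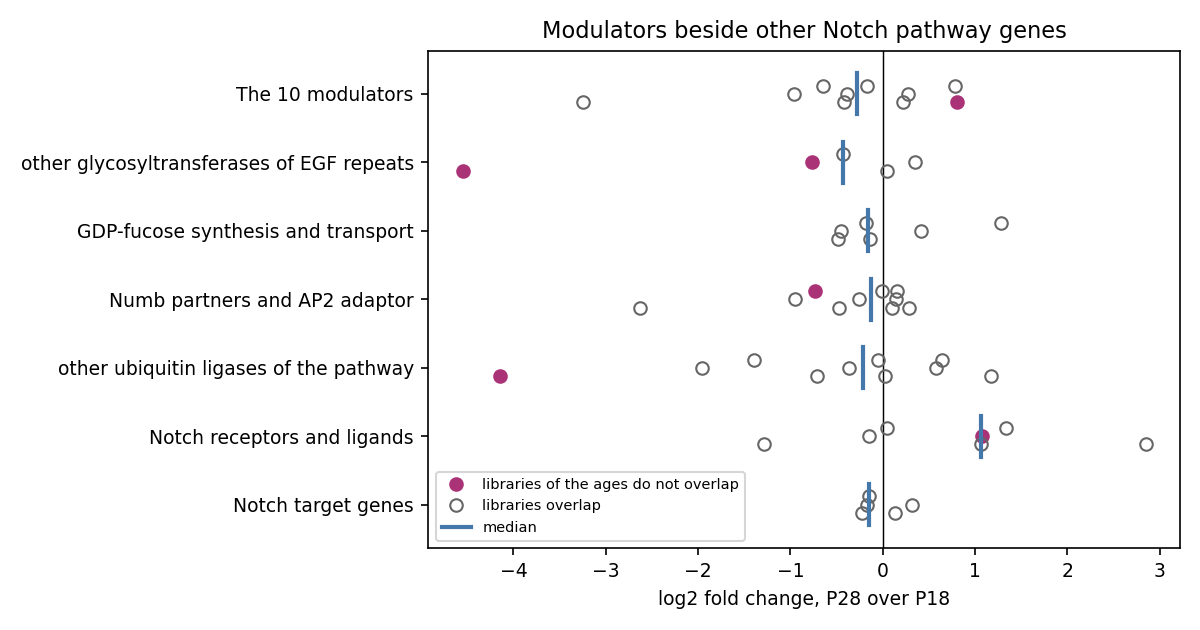
Log2 fold change, P28 over P18, of the 10 modulators and of the tested genes in 6 other Notch pathway lists. Filled points are genes whose libraries do not overlap between ages (1 modulator, Mfng, and 5 of the 43 others, where 10.4% of all tested genes do not overlap); blue bars are list medians, at -0.28 for the modulators and 1.06 for receptors and ligands.

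The captures held RNA of several cell types, given here beside Mfng because its ages stood apart. Of 9 endothelial markers, 9 were tested, 4 above 0 and 5 below, and their summed level was 814 to 1233 CPM in the P18 libraries and 837 to 1604 CPM in the P28 libraries. Pecam1, one of these, had no overlap between ages (log2 fold change 0.95 ± 0.20, edgeR test, adjusted p = 0.0518), and Cdh5 lay on the other side (-0.91 ± 0.49, edgeR test, adjusted p = 0.426). Of 9 leukocyte markers, 6 were tested and all 6 lay above 0; their sum was 391 to 540 CPM at P18 and 220 to 1188 CPM at P28, with Itgam at no more than 5 counts in any library. Of 7 mural cell markers, 4 were above 0 and 3 below, with sums of 571 to 889 CPM and 468 to 1106 CPM. Cspg4, one of these, had no overlap between ages (log2 fold change 1.49 ± 0.34, edgeR test, adjusted p = 0.0714). Kcnj8 was the lowest of the 3 below 0 (-0.73 ± 0.36, edgeR test, adjusted p = 0.370). Of 8 epithelial markers, 7 were tested and all 7 lay above 0, with sums of 24.7 to 577 CPM at P18 and 61.0 to 5516 CPM at P28. Among P28 libraries, the epithelial, endothelial, mural and Schwann cell sums were all highest in replicate 2. The leukocyte, osteoclast and ligament fibroblast sums were lowest there. Dtx2, Pofut1 and Numb were also highest for their age in this library, as were 24.7% of all tested genes. Numb led by little (11.9 CPM, the next 11.2 CPM).

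Markers of mineralised tissue included genes that passed the test. Of 8 osteoclast markers, 4 were tested and all 4 lay above 0, with sums of 1451 to 1707 CPM in the P18 libraries and 1024 to 7813 CPM in the P28 ones; the acid phosphatase gene Acp5 rose (log2 fold change 3.67 ± 0.77, edgeR test, adjusted p = 0.0494). Of 7 osteoblast and cementoblast markers, 4 lay above 0 and 3 below, with sums of 3819 to 5866 CPM and 4902 to 10279 CPM, and the osteocalcin gene Bglap rose (2.21 ± 0.38, edgeR test, adjusted p = 0.0264). Of 6 ameloblast markers, 4 were tested and all 4 lay below 0, with sums of 15.1 to 4790 CPM and 4.99 to 638 CPM; the enamel matrix gene Ambn and Amtn fell (edgeR test, adjusted p = 0.0204 and 0.0188). The ameloblast sum was highest in P18 replicate 1, the library in which all 10 members were at an extreme of their age. Of 6 Schwann cell markers, 5 were tested and 0 called, with sums of 4.50 to 85.6 CPM and 17.7 to 81.9 CPM. The part of these cell types in the levels of Mfng, Dtx2 and the other members was not tested.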

How the data were processed

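RNA-seq libraries of laser-captured cervical PDL from 8 rats (4 per age, P18 and P28) were used. The authors deposited raw counts per gene symbol; STAR 2.5.3a, HTSeq 0.9.1 and edgeR 3.16.5 with build rn6 are named in the submitters' processing notes, without their roles. Which annotation and strand setting were used is not stated in the labels. In the table, 40 columns of other samples and the deposited normalized table were not used. Ages were compared with edgeR 4.0.16 (R 4.3.3; glmQLFit, glmQLFTest, 2-sided; TMM; filterByExpr by age, minimum count 10, leaving 10472 genes), tested on simulated data. SE is the log2 fold change over the root of F; intervals are 95%. Log2 CPM used a prior count of 2. Floors for a count of 0 (3 counts) cover counting error only, since PCR copies are not independent molecules. Alternatives were other scalings, DESeq2 1.42.0, limma 3.58.1, other filters, a replicate block and leaving out libraries. Members and lists were chosen with earlier results of these data known. The rule named all members, called pathway genes, the 2 of lowest p per list, and the 3 genes most like the 3 members of lowest p (mean log2 CPM at least 3). Markers (Col1a1, Col3a1, Postn, Fmod, Tnmd, Aspn, Pecam1, Cdh5, Cspg4, Kcnj8, Itgam, Acp5, Bglap, Ambn, Amtn) were named after their values were seen. List symbols were matched through RefSeq (GRCr8) where they differed. In that table, Numb, Numbl, Dtx2, Dtx3 and Dtx4 each overlap 1 other gene, none of which is in the count table.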

Additional observations from a re-analysis of the deposited data

Results flagged for a closer look

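Within each age, the lowest and highest library of every member's CPM and of every ratio were compared with their nearest neighbour; 36 such groups were examined, and chance marks about 1 in 20. In 2 of them 1 library stood apart, by a gap of 0.920 and 0.964 of the range. Numb in P28 replicate 1, at 2.76 CPM, lay below the other P28 libraries (11.2 to 11.9 CPM). The log2 ratio of Numb over Numbl in P18 replicate 1, at -5.67, lay below the other P18 libraries (-1.14 to -0.96); it rests on 11 counts of Numb.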

How the results depend on the processing

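Over 15 alternatives (other scalings, tests and filters, a replicate block, and each library left out), 0 members were called, as before. The log2 fold change of Lfng turned to -0.0563 without P28 replicate 1 (up to 0.468 without P28 replicate 4). That of Nrarp turned to 0.034 without P28 replicate 4 (down to -0.596 without P28 replicate 1) and to 0.0080 with voom. The cause was not tested. The other 9 members kept their direction in all 15, but some came close to 0. Rfng reached -0.0068 without P18 replicate 1, and Dtx3 reached 0.021 without P18 replicate 4. Counts of called genes over the table depended on the test and on single libraries: 54 higher and 44 lower became 297 and 263 with the DESeq2 Wald test and 175 and 132 with voom and quality weights. Leaving out 1 library gave 4 to 110 higher and 5 to 105 lower, the fewest without P18 replicate 2 and the most without P28 replicate 4; each library but P28 replicate 2 moved them by over 1.5 times. Without P18 replicate 1 and P28 replicate 4, chosen after seeing the data, 146 were higher and 127 lower. Replicate numbers follow the order of the samples within an age, and the ages are different animals, so the numbers pair none. Correlations of deviations were -0.0196 to 0.0019 over 4 same-number pairs, with 0 of 4 P18 libraries closest to their own number. A replicate block on this arbitrary numbering gave 16 higher and 10 lower. The differences in ratios between ages moved by less than 1 SD with a pseudocount of 2 or with 1 library left out, but those SDs are wide. The difference of Numb over Numbl turned to -0.69 without P18 replicate 1; that of Lfng over Rfng went from 0.39 to 0.0073 without P28 replicate 1; and that of Dtx2 over Dtx3 went from 0.68 to 0.15 without P18 replicate 1 and to 1.41 without P18 replicate 4. Pofut1 and Dtx4 had 0 counts in P28 replicate 4, the shallowest library.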
